A study of Mus musculus with 18 samples.

Results

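Igfbp4, Sorcs2 and Tspan9 are 3 of the 15402 genes measured by RNA-seq in 6 sorted populations of CD4+ T cells from Foxp3-Tocky mice. They were chosen by their log2 values in Pers1 and Pers2 cells, which lay furthest below those in PAt and Arrested cells, so that difference is described here without a test. The female mice carried Foxp3Timer, a fluorescent Timer reporter transgene for Foxp3 transcription, together with Foxp3-IRES-GFP on a C57/BL6 background, and all had been sensitised on the abdominal skin with 3% oxazolone 5 days before their draining lymph nodes were taken. The labels give no age. Timer protein is blue when made and matures into a stable red form, so that blue fluorescence marks recent Foxp3 transcription and red fluorescence its accumulated history.

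Tnaive cells were sorted as CD44lo and Teff cells as CD44hi, both without Timer or GFP. Timer+ GFP+ cells were sorted as Pers1 (labelled BL1, intermediate blue and low red), Pers2 (BL2, high blue and high red), PAt (RD1, low blue and high red) and Arrested (RD2, no blue and intermediate red). The labels of single samples call these, in the same order, de novo, maturing, mature and decaying Foxp3 expressers. Pers1 and Pers2 together are called the persistent populations. Each population had 3 replicates from pooled mice, which made 18 libraries. Values are log2 of normalised read counts as the authors deposited them, and the depth of the libraries is unknown. In bulk RNA, fewer cells that transcribe a gene and less RNA per cell cannot be told apart.

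The products of the 3 genes work at or outside the cell surface. Igfbp4 encodes a secreted protein that binds insulin-like growth factors and limits their access to the receptor Igf1r, and that is itself cut by the protease Pappa. Sorcs2 encodes a sorting receptor of the VPS10 domain family, known from neurons, where it acts with the neurotrophin receptor Ngfr in responses to uncleaved neurotrophins. Tspan9 encodes a tetraspanin, a small protein that crosses the membrane several times and gathers partner proteins such as integrins into membrane domains, and it has been studied mostly in platelets.

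In GENCODE vM21 on GRCm38 (mm10), Igfbp4 (ENSMUSG00000017493.12) lies on chromosome 11 from 99041244 to 99054392 on the plus strand, and no other annotated gene overlaps it. Sorcs2 (ENSMUSG00000029093.14) lies on chromosome 5 from 36017180 to 36398139 on the minus strand. Psapl1 and the microRNA gene Mir7689 lie inside it on the opposite strand and share 0 bp with its exons. Tspan9 (ENSMUSG00000030352.14) lies on chromosome 6 from 127961396 to 128143594 on the minus strand, and the microRNA gene Gm26338 inside it shares 0 bp with its exons.

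Promoters are shown for 2 of the 3 genes, Igfbp4 and Tspan9, which were matched in RefSeq, while Sorcs2 was not. RefSeq (GRCm38.p6) gave 1 promoter for Igfbp4 and 4 for Tspan9, of which the most upstream is printed, each with 250 bases before and 50 after the start of transcription. Capitals mark matches to any of 10 short motifs, read on both strands. The Igfbp4 window is chr11:99040994-99041293 on the plus strand, and the Tspan9 window is chr6:128143529-128143828 on the minus strand.
Igfbp4: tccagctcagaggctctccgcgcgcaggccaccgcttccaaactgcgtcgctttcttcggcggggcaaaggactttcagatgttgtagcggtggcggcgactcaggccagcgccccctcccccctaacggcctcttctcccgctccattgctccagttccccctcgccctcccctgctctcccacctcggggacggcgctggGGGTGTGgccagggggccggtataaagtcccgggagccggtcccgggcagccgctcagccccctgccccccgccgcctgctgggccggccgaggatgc
Tspan9: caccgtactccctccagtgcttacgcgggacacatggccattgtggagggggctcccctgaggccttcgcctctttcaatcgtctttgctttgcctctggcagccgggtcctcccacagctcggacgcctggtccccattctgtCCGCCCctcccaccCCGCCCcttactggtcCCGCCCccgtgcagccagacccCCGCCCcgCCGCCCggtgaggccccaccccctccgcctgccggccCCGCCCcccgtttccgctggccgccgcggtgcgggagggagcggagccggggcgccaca

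The Igfbp4 window held 1 match to the KLF box GGGTGTG, and the printed Tspan9 window held 6 matches to the GC box GGGCGG, all on the other strand. The KLF box occurs in 7.95% and the GC box in 35.7% of the 32851 promoters of this length. No printed match overlapped another. The other motifs had no match in these windows, namely forkhead (TGTTTAC, 3.65% of promoters), NFAT (TGGAAA, 21.4%), ETS (CCGGAA, 14.9%), RUNX (TGTGGT, 16.8%), Tcf/Lef (CTTTGA, 16%), AP-1 (TGANTCA, 7.81%), the GATA family motif (AGATAA, 11.2%) and the E box (CACGTG, 7.15%). Among the other 3 starts of Tspan9, the most downstream held 1 GC box. The printed windows were rich in CpG, with 27 in Igfbp4 and 28 in Tspan9 against a median of 7 over all promoters.

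Igfbp4 was highest in Tnaive cells and lowest in the persistent populations. Its log2 values were 14.79, 14.67 and 14.71 in the Tnaive libraries and 10.40, 10.13 and 10.25 in the Teff libraries. They were 12.70, 12.44 and 12.56 in PAt and 13.02, 13.16 and 13.03 in Arrested cells. The persistent libraries had 8.96, 8.83 and 9.41 in Pers1 and 8.49, 8.91 and 8.38 in Pers2 cells. The population means fell into the order Tnaive (14.72 ± 0.06, SD, n = 3), Arrested (13.07 ± 0.08), PAt (12.57 ± 0.13), Teff (10.26 ± 0.14), Pers1 (9.07 ± 0.30) and Pers2 (8.59 ± 0.28). Libraries of neighbours in this order did not overlap, except those of Pers1 and Pers2.

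Tspan9 ordered the populations as Igfbp4 did. The Tnaive libraries had log2 values of 11.63, 11.61 and 11.57, the highest of all 18. Arrested libraries had 9.26, 9.48 and 9.33, and PAt libraries 8.69, 8.46 and 8.51. Teff libraries were the most spread, with 7.22, 8.19 and 7.92. The persistent libraries lay lowest, with 5.77, 6.14 and 6.16 in Pers1 and 5.89, 6.12 and 5.62 in Pers2 cells. Means were 11.60 ± 0.03 (SD, n = 3) in Tnaive, 9.36 ± 0.11 in Arrested, 8.55 ± 0.12 in PAt, 7.78 ± 0.50 in Teff, 6.02 ± 0.22 in Pers1 and 5.88 ± 0.25 in Pers2 cells. Only Pers1 and Pers2 overlapped among neighbours. The same order of the 6 means was found in 404 of the 13190 tested genes (3.06%), these 2 included.

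Sorcs2 had another order, in which Tnaive cells lay below PAt and Arrested cells. Its log2 values were 9.72, 9.62 and 9.84 in PAt, 9.48, 9.93 and 9.69 in Arrested and 8.95, 8.85 and 8.98 in Tnaive cells. They were 5.65, 6.05 and 5.92 in Pers2, 5.55, 6.07 and 5.61 in Teff and 5.50, 5.64 and 5.86 in Pers1 cells. The libraries thus formed a high group of 9 and a low group of 9, with nothing between 6.07 and 8.85. Means were 9.73 ± 0.11 (SD, n = 3) in PAt, 9.70 ± 0.22 in Arrested, 8.93 ± 0.07 in Tnaive, 5.88 ± 0.20 in Pers2, 5.74 ± 0.28 in Teff and 5.67 ± 0.18 in Pers1 cells. Among neighbours in this order PAt overlapped with Arrested, Pers2 with Teff and Teff with Pers1. The transform of the deposited values is not given in the sources used here, and one that moderates low values would understate such differences. Over the 18 libraries Pearson's r was 0.97 between Igfbp4 and Tspan9, 0.87 between Igfbp4 and Sorcs2 and 0.755 between Sorcs2 and Tspan9, a description of 6 populations with no p. The 12 Timer+ libraries chose all 3 genes, so a positive r was partly set by that choice. Among 3190 tested genes whose population means spanned at least 1, Tspan9 ranked 56 and Sorcs2 429 by r with Igfbp4. Tspan9 ranked 492 by r with Sorcs2.

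**Figure D1:**
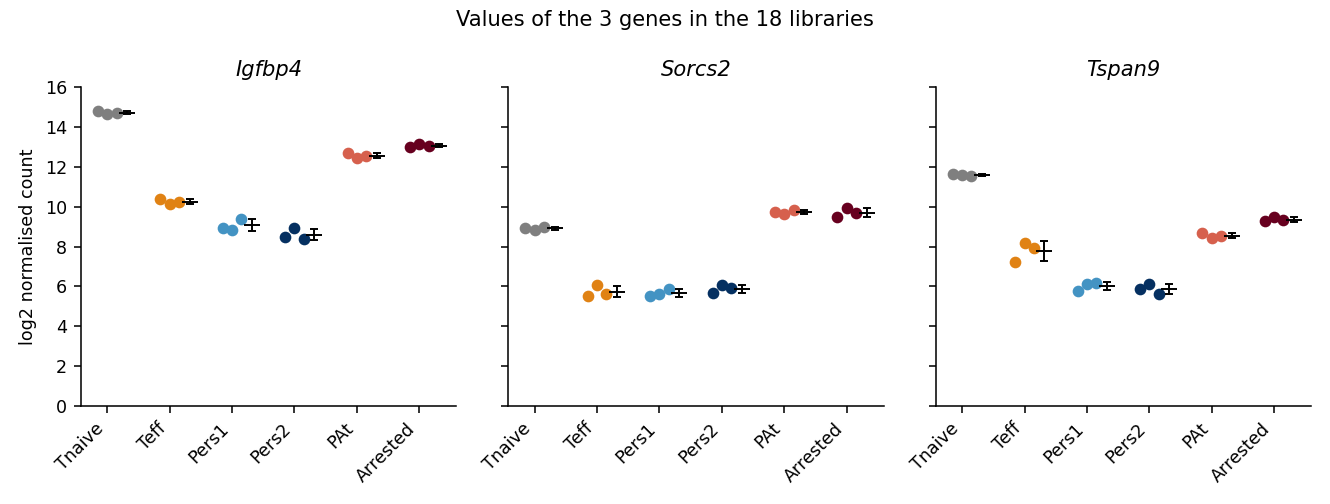
Log2 normalised counts of Igfbp4, Sorcs2 and Tspan9 in each library, with 6 populations on the horizontal axis, points for the 3 replicates and black bars for the mean ± SD. Igfbp4 and Tspan9 are highest in Tnaive cells (14.72 and 11.60), while Sorcs2 is highest in PAt and Arrested cells and its libraries of Teff, Pers1 and Pers2 cells overlap.

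The transcripts in use and the transform of the values are unknown. Per kilobase of exon the genes can therefore be set beside each other only roughly. On that scale (mean log2 value less log2 of the length of all annotated exons in kb) Igfbp4 was at 12.58, Tspan9 at 9.29 and Sorcs2 at 5.79 in Tnaive cells. In Arrested cells they were at 10.93, 7.04 and 6.56, and in PAt cells at 10.43, 6.24 and 6.59. Sorcs2 and Tspan9 thus changed places between Tnaive and PAt cells, and Igfbp4 stayed above them in all 6 populations. In Pers2 cells the levels per kb were 6.45 for Igfbp4, 3.56 for Tspan9 and 2.74 for Sorcs2.

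The comparison that chose the genes is given by its values only. From PAt and Arrested to the persistent populations, the log2 difference was -3.99 (standard error 0.09) for Igfbp4, -3.94 (0.10) for Sorcs2 and -3.01 (0.13) for Tspan9, that is 15.9-fold, 15.4-fold and 8.03-fold lower values. All 6 persistent libraries lay below all 6 PAt and Arrested libraries for each gene, which also held for 21.8% of all tested genes, and 2.77% of tested genes were called lower and 4.74% higher. In the order of all tested genes by this difference, Igfbp4 was lowest, Sorcs2 the second and Tspan9 the fourth. Itga4, the integrin alpha 4 subunit, stood between them with -3.12, and Bcl2, an inhibitor of apoptosis, came just after Tspan9 with -2.97.

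Tnaive and Teff libraries had no part in that choice, and there the genes could be tested. Teff cells were sorted by high CD44, a marker of T cells that have met antigen, and Tnaive cells by low CD44. All 3 genes were lower in Teff than in Tnaive cells, and each Teff library lay below each Tnaive library, as in 30.8% of all tested genes. Igfbp4 fell by 4.46 on the log2 scale (standard error 0.13, adjusted p = 2.19e-17), a 22.1-fold lower value. Tspan9 fell by 3.83 (standard error 0.18, adjusted p = 7.99e-14), or 14.2-fold. Sorcs2 fell by 3.19 (standard error 0.15, adjusted p = 7.32e-14), or 9.10-fold. Genes were called in limma where the p adjusted by Benjamini-Hochberg was under 0.05 and the log2 difference exceeded 1 in either direction, and 2.28% of tested genes were called lower and 8.88% higher in Teff cells. Ordered by this difference, Igfbp4 was the lowest of the 13190 genes, Tspan9 the second and Sorcs2 the fourth, with Ampd1, an AMP deaminase, between them (-3.27).

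Markers of other cells differed between Tnaive and Teff libraries too. All 8 B cell markers were called higher in Teff than in Tnaive cells, and log2 of their summed value was 9.93 to 10.4 in Tnaive and 12.7 to 13.3 in Teff libraries. It was 11.3 to 11.5 in Pers1 and in Pers2, 12.1 to 12.4 in PAt and 11.8 to 12.1 in Arrested libraries, and 3 of the 8 were called lower in the persistent populations when set against PAt and Arrested. The summed value of 8 T cell markers was 17.1 to 17.5 in all populations. The part of the B cell markers in the differences of the 3 genes was not tested. Of the other lists, 6 of 8 plasmacytoid dendritic cell markers, 3 of 6 tested macrophage or monocyte markers, 3 of 5 tested CD8 T cell or NK cell markers and 2 of 4 tested endothelial markers were called higher in Teff cells. So was 1 of the 8 T cell markers, while 1 of 3 platelet or megakaryocyte markers and 1 of the CD8 T cell or NK cell markers were called lower. Over all tested genes 8.88% were called higher and 2.28% lower in Teff cells. Of the markers called higher, Ncr1 and Cox6a2 had means under 3 in every other population. Only their Teff values brought them past the minimum of 3 for testing. In the persistent populations 1 macrophage or monocyte marker was called higher, and 1 marker each of plasmacytoid dendritic cells, platelets or megakaryocytes, and CD8 T or NK cells lower. None of the 2 tested stromal markers was called in either comparison by limma.

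Stromal cells and platelets are known sources of Igfbp4 and Tspan9. Of 10 stromal markers 3 were analysed here, and log2 of their summed value was 5.55 to 5.84 in Tnaive, 6.17 to 6.44 in Teff, 6.78 to 7.0016 in Pers1, 6.80 to 7.01 in Pers2, 6.05 to 6.43 in PAt and 5.88 to 6.40 in Arrested libraries. From PAt and Arrested to the persistent populations the difference was 0.88 for Col1a1 and -0.24 for Col1a2, both collagen genes, and Pdgfrb was too low to be tested. Of 9 platelet or megakaryocyte markers 3 were analysed here, and the defining genes Pf4 and Ppbp were not. The summed value was 12.8 in Tnaive, 11.5 to 11.6 in Teff, 11.9 to 12.1 in Pers1, 11.4 to 11.7 in Pers2, 11.3 to 11.4 in PAt and 12.0 to 12.1 in Arrested libraries. Itga2b, the integrin alpha IIb subunit, had -1.06 in the persistent comparison (called lower) and -0.82 in Teff cells, and Gp1ba, a platelet receptor subunit, had -0.74 and -0.64. Itgb3, the integrin beta 3 subunit, had 0.17 and -1.23 (called lower). The differences of Itga2b and Gp1ba were thus negative in both comparisons, while Itgb3 was positive in the persistent comparison. The part of stromal cells or platelets in the values of the 3 genes was not tested.

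The difference within a pair does not enter the contrast that chose the genes. Within the persistent pair no gene of the 3 passed the threshold, as few genes did (25 of 13190, 0.19%, with 0.144% called higher and 0.0455% lower in Pers2). Igfbp4 had a log2 difference of -0.47 from Pers1 to Pers2 cells (standard error 0.13, adjusted p = 0.0196), short of a log2 difference of 1, with overlapping libraries. For Sorcs2 the difference was 0.21 (standard error 0.15, adjusted p = 0.426) and for Tspan9 -0.15 (standard error 0.18, adjusted p = 0.691). Without 1 library Igfbp4 ranged from -0.63 to -0.30, and limma's adjusted p was 0.150 without Pers1 replicate 3, 0.0784 without Pers2 replicate 1 and 0.105 without Pers2 replicate 3. Sorcs2 ranged from 0.12 (without Pers2 replicate 2) to 0.32 (without Pers2 replicate 1), and Tspan9 from -0.27 (without Pers1 replicate 1) to -0.0155 (without Pers2 replicate 3).

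Between Arrested and PAt cells Tspan9 and Igfbp4 again fell short of the threshold, which 16 genes passed (0.121%, with 0.0455% called higher and 0.0758% lower in Arrested cells). Without Arrested replicate 3 there were 26 such genes. Tspan9 had a log2 difference of 0.80 from PAt to Arrested cells (standard error 0.18, adjusted p = 0.00965), with a 1.74-fold higher value in Arrested cells. Igfbp4 had a difference of 0.50 (standard error 0.13, adjusted p = 0.0222). Without PAt replicate 2 limma's adjusted p was 0.05002 for Tspan9 and 0.116 for Igfbp4, without Arrested replicate 2 it was 0.0558 and 0.104, and without PAt replicate 3 it was 0.0598 for Igfbp4. For these genes each Arrested library exceeded each PAt library, which held for 7.84% of tested genes. Sorcs2 did not show this, with -0.03 (standard error 0.15, adjusted p = 0.940) and overlapping libraries.

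**Figure D2:**
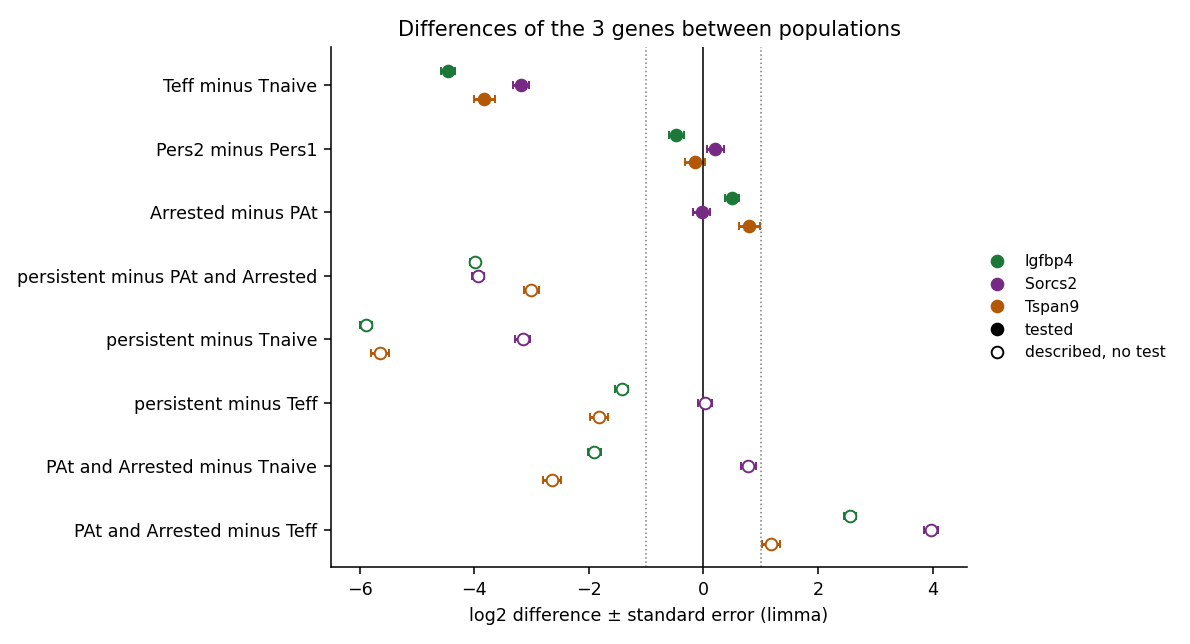
Log2 differences (first population minus second) of Igfbp4, Sorcs2 and Tspan9 with standard errors from limma. Filled points were tested, open points are descriptions because the pair means that chose the genes are in them, and dotted lines mark -1 and 1. From Tnaive to Teff cells the 3 genes lie at -4.46, -3.19 and -3.83.

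Set beside Timer-negative cells, the 3 genes differed in where the Timer+ populations stood, given here as values without a test since the pair means that chose the genes are in them. The log2 difference of the persistent populations to Teff cells was -1.43 for Igfbp4 (standard error 0.11) and -1.83 for Tspan9 (0.15), and no library overlapped. Without Teff replicate 1, the value for Tspan9 was -2.10. For Sorcs2 the difference to Teff cells was 0.03 (0.13), and its libraries overlapped. Against Tnaive cells the persistent populations were 59.4-fold lower in Igfbp4, 50.3-fold in Tspan9 and 8.91-fold in Sorcs2. The difference of PAt and Arrested to Tnaive cells was -1.90 in Igfbp4, -2.65 in Tspan9 and 0.79 in Sorcs2. Above Teff cells they stood by 2.56 in Igfbp4, 3.97 in Sorcs2 and 1.18 in Tspan9 (0.90 without Teff replicate 1).

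The comparisons of persistent with PAt and Arrested cells and of Teff with Tnaive cells share no library. Lower calls numbered 365 in the former (2.77% of all tested genes) and 301 in the latter (2.28%). Both lists held 116 genes, 31.8% of the former and 38.5% of the latter. These counts include Igfbp4, Sorcs2 and Tspan9, although the former comparison chose them. The 3 genes were far down on both axes, with Igfbp4 lowest on each.

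**Figure D3:**
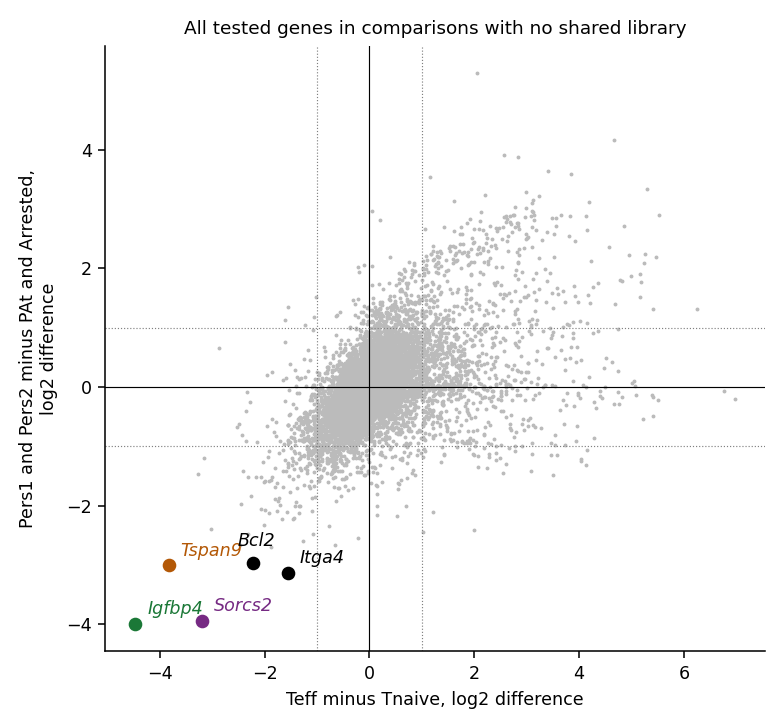
All 13190 tested genes (grey) by their log2 difference of Teff minus Tnaive cells (horizontal) and of the persistent populations minus PAt and Arrested cells (vertical), with dotted lines at -1 and 1. Igfbp4, Sorcs2 and Tspan9 are coloured and lie at the lower left, with Itga4 and Bcl2 (black) beside them on the vertical axis but nearer to 0 on the horizontal axis.

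In the IGF system 4 of the 7 tested genes besides Igfbp4 were lower in the persistent populations at an adjusted p under 0.05 in limma. These 4 were all that passed that cutoff in the list, and most of all tested genes passed it in either direction. The share of all tested genes that were lower at that cutoff is not given here, so the count of lower genes cannot be judged against it. Of the 4 genes, 2 passed the threshold on the difference as well. Of 21 listed, 12 were analysed here and 7 were tested, and 2 of these were called lower in the persistent populations against PAt and Arrested, where 7.51% of all tested genes were called in either direction and 2.77% lower. Igf2r, the receptor that takes up Igf2 for breakdown, fell by 1.07 (adjusted p = 1.32e-15) and Irs2, an adaptor of insulin and IGF receptors, by 1.20 (adjusted p = 3.55e-07). Igf1r, the signalling receptor, had a difference of -0.89, and Insr of -0.79. The median of the 7 was -0.79, against -0.01 over all tested genes. From Tnaive to Teff cells Igf1r rose by 1.59 and Igf2r fell by 1.45, where 11.2% of tested genes changed. Among the binding proteins, Igfbp7 was tested and stayed between 5.03 and 5.40 in all populations. Igfbp6 and the ligands Igf1 and Igf2 had mean values under 3 and were not tested, and Igfbp1, Igfbp2, Igfbp3, Igfbp5 and Pappa were not analysed here.

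Among the relatives and partners of Sorcs2 the differences had both signs. Of 17 VPS10 receptors and neurotrophin partners, 11 were analysed here and 10 were tested. The neurotrophin receptor gene Ntrk3 had a log2 difference of -1.56 from PAt and Arrested to the persistent populations (adjusted p = 6.72e-12) and was the only one of the 10 called there, where 2.77% of all tested genes were called lower. Sortilin (Sort1), a related sorting receptor, had 3.82 in Tnaive and 6.68 in Teff cells, a rise of 2.87 where Sorcs2 fell and the only call of the 10 there (8.88% of all tested genes were called higher), and -0.13 between the persistent and the other Timer+ populations. Sorl1, of the same family, had differences of -0.88 in the persistent populations and 0.24 in Teff cells. Gga3, a sorting adaptor gene, had -0.73 and -0.36. Ngfr had means from 2.88 to 3.01 outside Teff cells, near the minimum of 3 for testing, and a difference of 0.89 from Tnaive to Teff cells. Sorcs1, Sorcs3 and Bdnf were not analysed here. Medians of the 10 genes, Ngfr included, were -0.12 in the persistent populations and 0.56 in Teff cells.

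The other tetraspanins had differences of both signs. Of 32 others 22 were analysed here and 19 were tested, and Cd9 alone was called, with a lower value in the persistent populations against PAt and Arrested (-1.11, adjusted p = 3.46e-14), where 7.51% of all tested genes were called in either direction. In 3 of 12 fits that each left out 1 library, those without PAt replicate 3, Arrested replicate 1 or Arrested replicate 2, a second tetraspanin was called. Which gene it was is not given here. With all libraries, Rom1 lay nearest to the threshold among those not called, with a higher value in the persistent populations (0.98). From Tnaive to Teff cells 5 of the 19 rose, against 8.88% of all tested genes, namely Tspan2 (1.86), Cd82 (1.62), Tspan31 (1.38), Tspan13 (1.25) and Tspan5 (1.06). Cd53 and Cd37, tetraspanins of leukocytes, had differences of 0.57 and 0.04 in the persistent populations. Medians of the 19 genes were 0.15 in the persistent and 0.32 in the Teff comparison, against -0.01 and 0.0047 over all tested genes. Both were opposite in sign to Tspan9, whose sign in the persistent comparison was set by the choice of the genes.

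Proteins known to pair with tetraspanins moved in different directions. Of 9 tested genes, Itgb1, the integrin beta 1 subunit, rose by 1.40 in the persistent populations against PAt and Arrested, and Itga4 was lower (-3.12). From Tnaive to Teff cells Itgb1 rose by 4.69, and Itga4 and Itga6 fell by 1.55 and 1.25. Igfbp4 is known to bind the Wnt receptors Lrp6 and Fzd8 as well, and of 12 tested Wnt receptors and Tcf/Lef factors, 1 was called lower in the persistent populations, against 2.77% of all tested genes. This was Tcf7, a transcription factor of early T cells, with -1.48 (adjusted p = 3.47e-18). From Tnaive to Teff cells Lef1 (-1.38) and the Wnt receptor Lrp5 (-1.03) were called lower and the Wnt target Axin2 (1.04) higher. The median of the 12 in the persistent comparison was -0.41, and Lrp5, Lef1, Tcf7l1 and Tcf7l2 had differences of -0.72, -0.69, -0.77 and -0.61 there, short of the threshold. Lrp6 had differences of -0.70 and -0.66, and Fzd8 was not analysed here. Within Pers1 and Pers2 and within PAt and Arrested, limma called 0 of the 57 tested genes of these 5 lists. At an adjusted p under 0.05 alone there were 12 and 11 genes, and the counts over all tested genes at that cutoff are given further below. At an unadjusted p under 0.05 there were 20 and 17 genes. The share of all tested genes at that cutoff is not given here, so these counts cannot be judged against it.

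**Figure D4:**
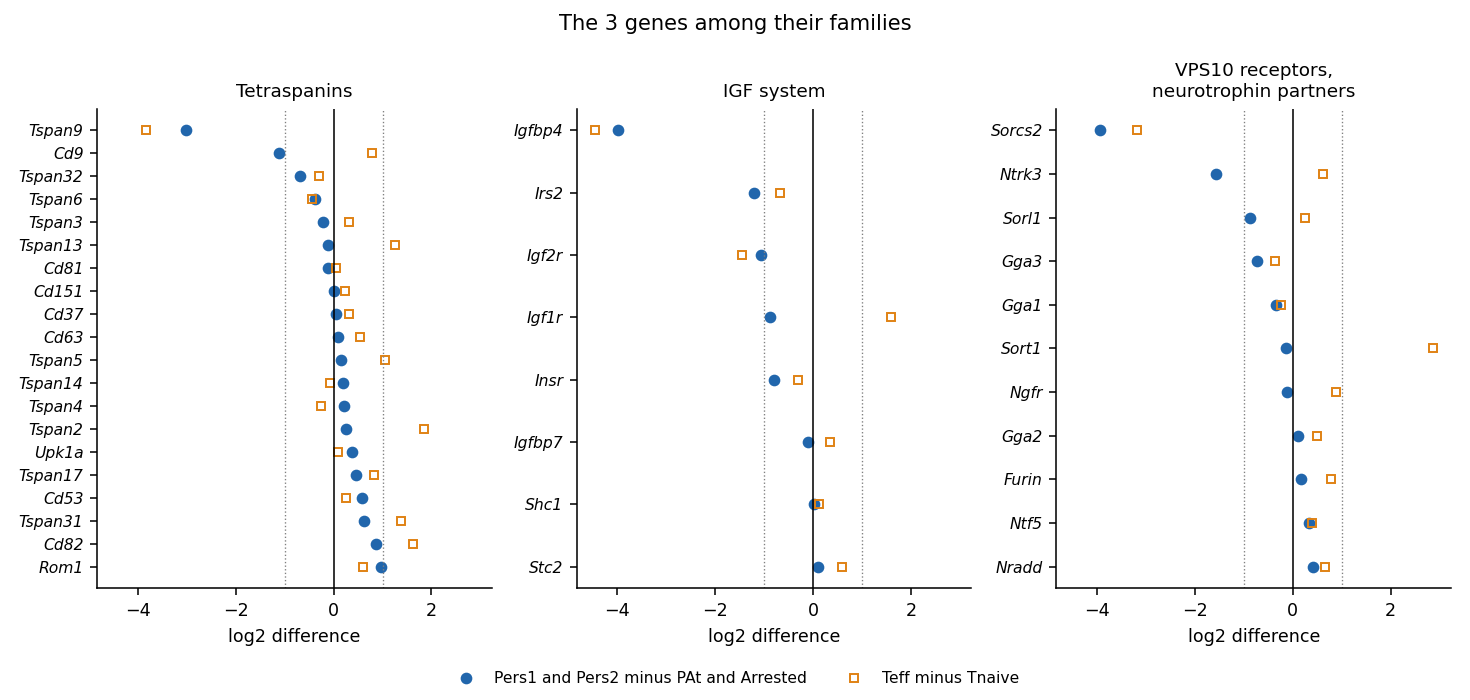
Log2 differences of the tested tetraspanins, IGF system genes, and VPS10 receptors with neurotrophin partners, for the persistent populations minus PAt and Arrested cells (blue circles) and Teff minus Tnaive cells (open orange squares), with dotted lines at -1 and 1. Tspan9, Igfbp4 and Sorcs2 lie lowest in their panels in both comparisons.

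The genes with the most similar profiles were found by Pearson's r over the 18 libraries, among 3190 tested genes whose population means spanned at least 1 on the log2 scale. The libraries cluster by population, so r describes the order and spacing of the 6 populations, and no p is given. For Igfbp4 the 5 closest were Arhgef18 (r = 0.994), Acp5 (0.992), an acid phosphatase, the long noncoding RNA Snhg12 (0.989), the kinase gene Stk38 (0.988) and Nckap5l (0.988). Their span was smaller: Arhgef18 had 13.86 ± 0.04 (SD, n = 3) in Tnaive and 12.37 ± 0.12 in Pers2 cells.

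For Tspan9 the closest was Amigo2 (r = 0.996), an adhesion protein gene, which had 10.70 ± 0.11 (SD, n = 3) in Tnaive, 8.73 ± 0.16 in Arrested, 8.12 ± 0.21 in PAt, 7.69 ± 0.28 in Teff, 6.14 ± 0.13 in Pers1 and 5.92 ± 0.21 in Pers2 cells. The span of Amigo2 came near that of Tspan9 itself. Next were Mylip (0.986), a ubiquitin ligase gene, Acss1 (0.986), a mitochondrial acetyl-CoA synthetase gene, Scml4 (0.985) and Abhd11 (0.984).

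For Sorcs2 the closest was Bcl2 (r = 0.995), the gene next to Tspan9 in the order by which the 3 genes were chosen. Bcl2 had 13.76 ± 0.13 (SD, n = 3) in PAt, 13.60 ± 0.16 in Arrested, 13.04 ± 0.12 in Tnaive, 10.81 ± 0.02 in Teff, 10.71 ± 0.26 in Pers2 and 10.70 ± 0.07 in Pers1 cells, the order of Sorcs2 apart from a change of places between Pers2 and Teff. St8sia6 (0.984), a sialyltransferase gene, Ttll3 (0.984), Dqx1 (0.981) and Mmp11 (0.976), a matrix protease gene, followed. No gene was among the 5 closest of more than 1 of the 3.

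**Figure D5:**
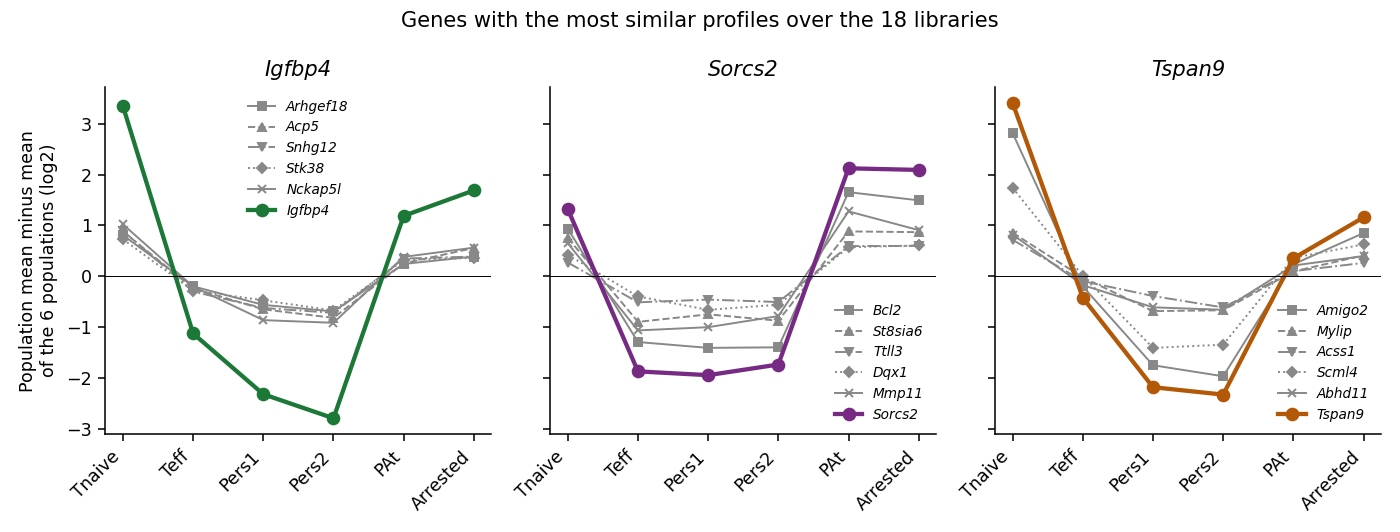
Population means of Igfbp4, Sorcs2 and Tspan9 (coloured) and of the 5 genes closest to each by Pearson's r over 18 libraries (grey), each less its own mean over the 6 populations, in log2. The grey lines keep the shape of the coloured line with a smaller span, and Amigo2 comes nearest to Tspan9 in size.

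Replicates of these genes were more spread than those of most genes. The SD within populations, pooled over the 6, was 0.19 for Igfbp4, 0.19 for Sorcs2 and 0.25 for Tspan9, against a median of 0.11 over all tested genes, and 90.4%, 91.2% and 97.4% of genes had a smaller one. For Tspan9 the Teff libraries gave most of it, with replicate 1 at -0.55 from the mean of its population and replicate 2 at 0.41.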

How the data were processed

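RNA of 18 libraries of sorted T cells was sequenced, 3 replicates of each of 6 populations, with groups and replicate numbers taken from the sample titles. The authors prepared stranded mRNA libraries and aligned paired-end reads with TopHat2 2.0.9 to mm10, either alone or with the Timer sequence added, and used DESeq2. The tool that counted reads, whether it used strand, and the log transform are not given in the sources used here. For 15402 genes the authors deposited normalised counts on the log2 scale, which include non-integer values down to -0.02. Of these, 22 symbols had become dates. Counts were not analysed here, the depth is unknown, so the precision rests on the 3 replicates, and p-values measure the spread between these pools.

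A linear model of the 6 populations over all 18 libraries was fitted to the values as deposited with limma 3.58.1 (R 4.3.3). Variances followed a trend with the mean, and p-values were adjusted by Benjamini-Hochberg over 13190 genes whose mean over all libraries was 3 or more. The 2212 others were left out. On simulated data for Teff and Tnaive cells, in which 200 of 13190 genes had a true log2 difference of 2, the model recovered 200 and made 0 false calls. The simulated noise was normal and independent between libraries, without the correlation by replicate number given below. This run therefore checks the code and gives no error rate for these data. The members and all lists (IGF system, VPS10 receptors and neurotrophin partners, tetraspanins, their partner proteins, Wnt receptors and Tcf/Lef factors, and markers of T, B, macrophage or monocyte, plasmacytoid dendritic, platelet or megakaryocyte, stromal, endothelial, and CD8 T or NK cells) were chosen with earlier results of these data known. Named genes were the members, those next to them in the order that chose them, the 5 most similar genes each, and list genes past the threshold, at most 8 a list. Values of further list genes are given where a family is described, and these were chosen after their values were seen. Some list genes are not reported here.

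Replicate numbers were taken to pair the libraries, since the deposited description has all 6 populations sorted from each mouse. Deviations from population means correlated with a median r of 0.17 over 45 pairs of libraries with the same number and -0.06 over 90 pairs with different numbers. Coordinates and exon lengths came from GENCODE vM21, promoters from RefSeq, and protein sequences were not used here. Alternatives were no filter, only the populations compared, no trend, the replicate block, centring on library medians, no threshold on the difference and leaving out each library.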

Additional observations from a re-analysis of the deposited data

How the results depend on the processing

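The lower values of Igfbp4, Sorcs2 and Tspan9 in Teff than in Tnaive cells passed the threshold under every alternative run. Without 1 library they ranged from -4.53 to -4.40, -3.35 to -3.09 and -4.03 to -3.55, and the values of the comparison that chose the genes from -4.07 to -3.93, -4.00 to -3.88 and -3.07 to -2.94. With the replicate block no call on a member or list changed, and the adjusted p for Tspan9 between Arrested and PAt cells was 0.00344. Differences near 0 changed sign. For Sorcs2, Arrested minus PAt ranged from -0.15 to 0.08 without 1 library (0.03 without PAt replicate 3 and 0.0771 without Arrested replicate 1). The persistent populations minus Teff for Sorcs2 ranged from -0.0671 to 0.19 (negative without Teff replicate 1 or 3, Pers1 replicate 3 or Pers2 replicate 2), and was -0.0304 with libraries centred on their median. Against Teff cells, Tspan9 ranged from -2.10 to -1.62 in the persistent populations and from 0.90 to 1.38 in PAt and Arrested cells, and was -2.10 and 0.90 without Teff replicate 1.

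With no threshold on the difference, more genes were called by construction. The counts for all tested genes were 7785 (Teff and Tnaive), 9357 (persistent against PAt and Arrested), 1395 (Pers2 and Pers1) and 665 (Arrested and PAt). In the same order of comparisons they were 6, 4, 2 and 2 in the IGF system, 10, 7, 1 and 1 in VPS10 receptors and neurotrophin partners, 15, 14, 4 and 3 in tetraspanins, 8, 7, 3 and 2 in tetraspanin partner proteins, and 8, 10, 2 and 3 in Wnt receptors and Tcf/Lef factors. Without 1 library, the count between Arrested and PAt cells ranged from 12 to 26 (26 without Arrested replicate 3), and that of tetraspanins in the persistent comparison from 1 to 2. The depth of the libraries is unknown, so how far counting error limits the low values of Sorcs2 and Tspan9 in the persistent populations was not tested.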

Other observations

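The genes with the most opposed profiles, which fall outside the rule for named genes, were taken from the same 18 libraries. For Igfbp4 they were Tmem154 (Pearson's r = -0.995), Scpep1 (-0.989) and Ezh2 (-0.988), which encodes a histone methyltransferase of the Polycomb group. The log2 means of Ezh2 were 10.24 ± 0.05 (SD, n = 3) in Tnaive, 10.80 ± 0.13 in Arrested, 11.02 ± 0.12 in PAt, 11.51 ± 0.05 in Teff, 12.00 ± 0.08 in Pers1 and 12.16 ± 0.12 in Pers2 cells, the reverse of the order of Igfbp4. For Tspan9 they were Wee1 (-0.992), a kinase gene that restrains entry into mitosis, Ctnna1 (-0.991) and Kif11 (-0.990), a motor protein gene of the mitotic spindle. Kif11 was at 6.85 ± 0.28 in Tnaive and 12.32 ± 0.13 in Pers2 cells. For Sorcs2 they were Maats1 (-0.975), Fkbp1a (-0.972) and Gstt2 (-0.970). Libraries of a population cluster together, so these values describe the order and spacing of 6 populations and carry no p.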
